A study of Mus musculus with 37 samples.

Results

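The effect of losing maternal BAP1 on the epiblast was examined in 4 poly(A) RNA-seq libraries of embryonic day 6.5 (E6.5) mouse epiblast (EPI), 2 labelled maternal knockout (matKO) and 2 labelled control (CTR), out of the 37 libraries of the series. These were all the epiblast libraries, chosen by their labels alone, and the comparison ran over 13376 of the 55401 genes listed. The other libraries came from oocytes, eggs, cleavage embryos and 2 further E6.5 lineages, the EXE (extra-embryonic ectoderm) and the VE (visceral endoderm). Knockout embryos came from Bap1 flox/flox mothers whose oocytes had recombined both alleles through Gdf9-iCre, a Cre recombinase driven in growing oocytes. Control embryos came from Bap1 flox/flox mothers without Cre. The fathers of both groups were of the PWK strain and carried wild-type Bap1, so embryos of both groups had a functional paternal copy, and in the controls the floxed maternal copy was intact as well. The labels do not say how many embryos made up a library, nor whether replicates came from separate litters. The p-values below therefore measure only the spread between libraries, which may be partly technical. For EPI, that spread and the standard errors (SE) were estimated from the 4 EPI and 4 VE libraries together. For a gene absent from VE, they can understate the spread within EPI.

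BAP1 is a deubiquitinase that, with an ASXL partner, removes the ubiquitin that Polycomb repressive complex 1 (PRC1) places on lysine 119 of histone H2A. Polycomb complexes hold many developmental regulators silent, mostly at promoters rich in CpG, and the oocyte passes some of this chromatin state to the embryo. The epiblast is the pluripotent layer that gives rise to the whole body. Around this stage part of it enters the primitive streak and begins to make mesoderm and endoderm, while the visceral endoderm encloses it.

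The deposited values are FPKM, in which fragments are scaled to gene length and library size. The 4 EPI columns summed to between 593710 and 704520 FPKM, and between 11083 and 12459 genes reached 1 FPKM in each. The number of reads behind these values is unknown. Y-linked genes were present in control replicate 1 and knockout replicate 2 (summed level 38.1 and 68.0 FPKM) and listed at 0 in the other EPI libraries, so both genotypes held a library with and a library without them. Each EPI library was most similar to the library of the other genotype with the same replicate number. Pearson's r over log2(FPKM + 1) of the tested genes was 0.959 between the libraries numbered 1 and 0.974 between those numbered 2, compared with 0.952 between the controls and 0.910 between the knockouts. Differences between replicates 1 and 2 were therefore partly the same in both genotypes, as the plot of replicate differences shows.

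**Figure D1:**
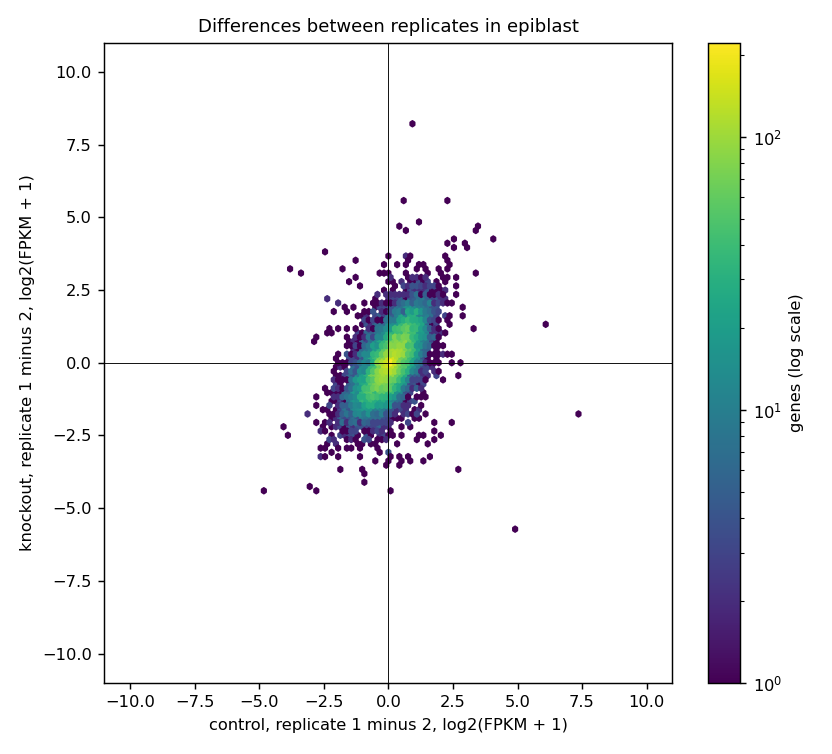
Each hexagon counts genes by their difference between replicates 1 and 2 in control (horizontal) and knockout (vertical) epiblast on the log2(FPKM + 1) scale, over 13376 genes. The cloud lies along the rising diagonal, so many genes differed between the replicates in the same direction in both genotypes.

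The EPI label was checked against marker genes. Pou5f1, the transcription factor that marks pluripotent cells, measured 427 and 274 FPKM in the control and 694 and 595 FPKM in the knockout EPI libraries, against at most 0.213 FPKM in VE. The 9 epiblast markers (Pou5f1, Sox2, Nanog, Fgf5, Otx2, Pou3f1, Utf1, Dnmt3b and L1td1) summed to 1368 to 2077 FPKM in EPI and to 159 to 251 FPKM in VE. In EXE the same sum reached 590.0 to 708 FPKM. Markers of the neighbouring lineages were low. The 12 VE markers summed to 144 and 155 FPKM in control and 217 and 109 FPKM in knockout EPI, compared with 14032 to 24422 FPKM in VE. Apoe alone made up most of that sum in EPI. The 10 EXE markers summed to 16.3 to 25.4 FPKM in EPI and 565 to 645 FPKM in EXE, and the EXE regulator Elf5 was listed at 0 in both controls and at 0.131 and 0.0279 FPKM in the knockouts. The 22 markers of decidua and blood summed to 3.37 to 5.87 FPKM, with 11 to 13 of them at 0, and the 6 markers of giant cells and parietal endoderm to 0.454 to 0.631 FPKM, with 4 or 5 at 0.

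**Figure D2:**
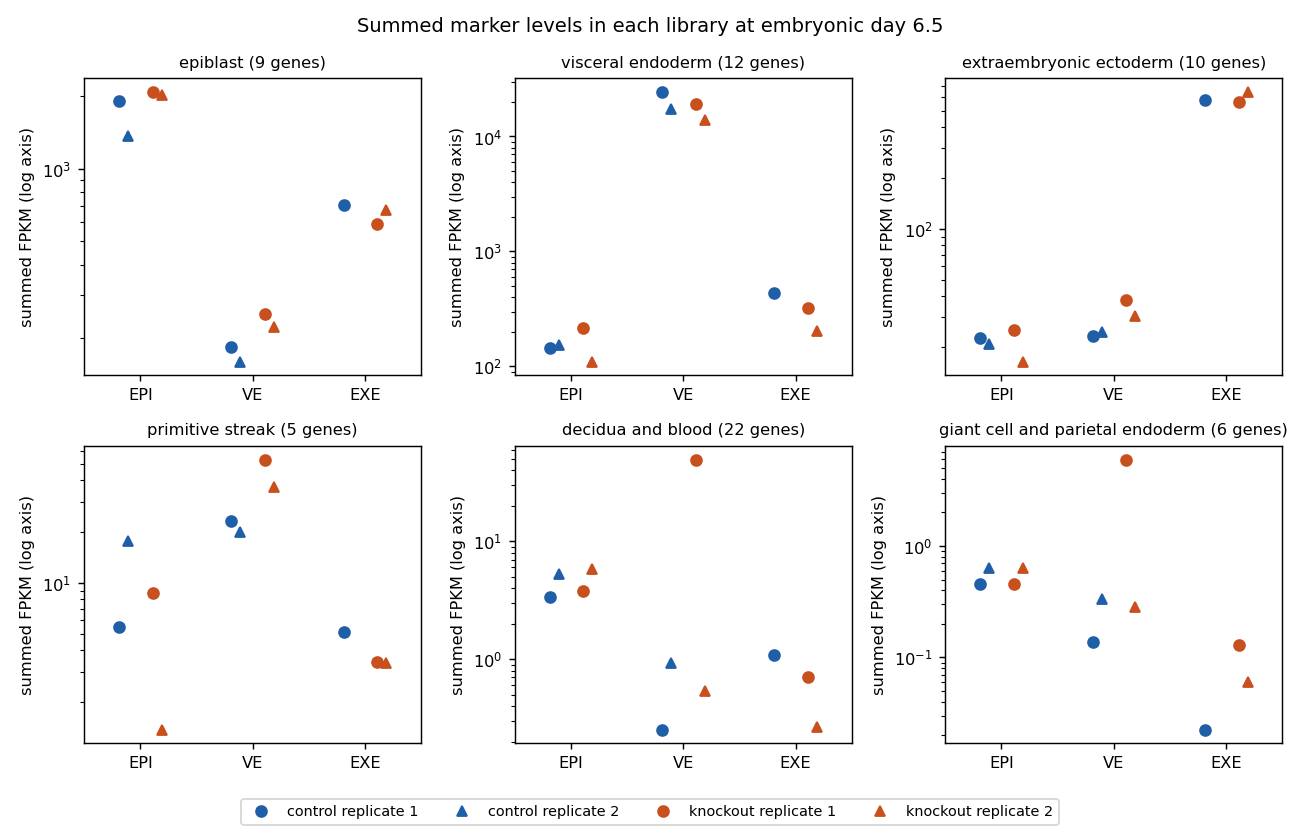
Each panel gives the summed FPKM of 1 marker list (log axis) in every E6.5 library, grouped by lineage, with circles for replicate 1 and triangles for replicate 2. The epiblast sum is highest in EPI (1368 to 2077 FPKM), and the visceral endoderm and extraembryonic ectoderm sums in EPI lie far below those of their own lineages.

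Bap1 itself was examined first among the genes. It lies at chr14:31251450-31259944 on the plus strand of GRCm38 (GENCODE M21), the build and release used for all gene positions here. Bap1 measured 22.6 and 14.1 FPKM in control and 21.8 and 33.8 FPKM in knockout EPI. The groups overlapped, and the log2 fold change of 0.57 ± 0.37 (SE) had a limma adjusted p of 1. Bap1 was thus not lower in the libraries labelled knockout, although their labels give a deleted maternal copy, and its mRNA gives no check of the genotype labels at this stage. Every direction below rests on those labels. In late 2-cell embryos, measured in separate total RNA libraries, Bap1 was still lower in the knockout, at 24.4 and 20.9 FPKM in control against 9.69, 11.7 and 10.0 FPKM in knockout.

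Across the transcriptome, no gene of 13376 (0%) passed a Benjamini-Hochberg adjusted p of 0.05 in limma between knockout and control EPI when the 4 EPI and 4 VE libraries were fitted together, and the smallest adjusted p was 0.179, for Foxd3. At an unadjusted p under 0.05, the knockout exceeded the control for 217 genes (1.62%) and fell short of it for 89 (0.665%), which makes 306 in all (2.29%). Both knockout libraries lay above both controls for 1951 genes (14.6%) and below both for 1260 (9.42%). The median log2 fold change was 0.06 and the median standard error 0.41. An absolute log2 fold change of at least 1 was reached by 328 genes, 228 higher and 100 lower. The direction of the small differences depended on the scaling. The unadjusted counts were 256 higher and 61 lower after TPM scaling, 172 and 166 after quantile normalization, and 107 and 163 after centring each library on its median. The median log2 fold change was 0.11, 0 and -0.09 in that order, so differences near these values have no settled sign. With a pseudocount of 0.1 in place of 1, Foxd3, Trex1 and Cyp26a1 passed (limma adjusted p 0.0386 each). For a single gene, an exact permutation test of 2 against 2 libraries cannot give a two-sided p below 0.333. The genes named below are therefore described by their values, and none of them passed in the main limma fit of knockout against control EPI. Medians of gene lists are given as measured. Those of Nodal and BMP signalling, WNT signalling, Hox, developmental transcription factors, noncanonical imprinted genes, immediate early genes, cell cycle, ribosomal proteins and other H2A deubiquitinases changed sign under at least 1 scaling, while those of the epiblast, streak, visceral endoderm, PRC1, PRC2, DNA methylation, germline and FGF lists kept it under all 3. Leaving out an EPI library moved these medians further, from -0.70 to 0.13 for the streak list, 0.05 to 0.30 for the epiblast list, 0.026 to 0.22 for PRC1, 0.13 to 0.41 for PRC2, 0.24 to 0.73 for DNA methylation, 0.14 to 0.77 for the germline list and 0.18 to 0.45 for FGF.

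**Figure D3:**
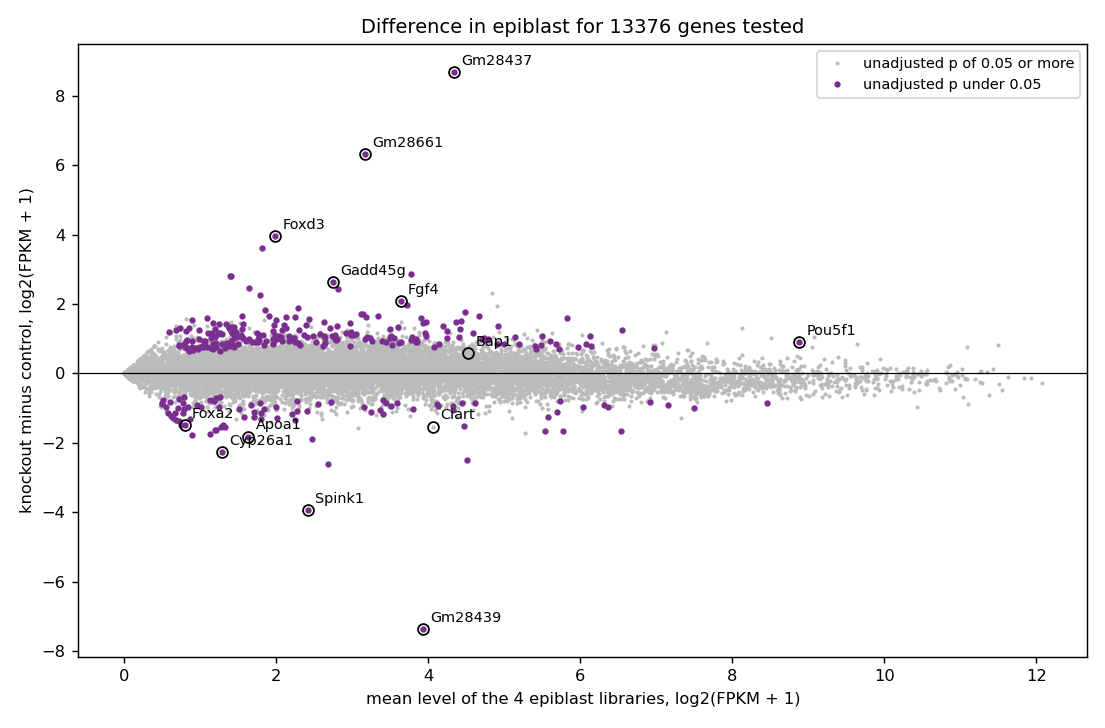
Each point is 1 of 13376 genes, placed by its mean level in the 4 epiblast libraries and by knockout minus control, both as log2(FPKM + 1); purple points have an unadjusted p under 0.05 (306 genes) and circles mark genes named in the text. No point passed an adjusted p of 0.05, and the position of genes listed at 0 in a group, such as Foxd3 (adjusted p 0.179), depends on the pseudocount.

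Predicted models aside, the gene with the smallest adjusted p among those higher in both knockout libraries was Foxd3. Foxd3 (ENSMUSG00000067261.4, chr4:99656299-99658622, plus strand) encodes a forkhead repressor needed to keep pluripotent epiblast cells and later neural crest. It was listed at 0 in both controls and measured 25.6 and 8.16 FPKM in the knockouts, with 0 in all 4 VE libraries and at most 0.161 FPKM in EXE. The groups did not overlap. No fold is given against a group listed at 0, and Foxd3 entered the test only through its 2 knockout libraries. Fgf4, the growth factor through which pluripotent cells signal to themselves and to the trophoblast (chr7:144847367-144865243, plus strand), measured 6.59 and 3.83 FPKM in control and 17.5 and 34.0 FPKM in knockout EPI. Its log2 fold change was 2.07 ± 0.42 (SE), with a limma adjusted p of 1 and no overlap between the groups. Fgf4 was listed at 0 in every VE library, and those values entered the pooled spread behind its SE. In late 2-cell embryos Fgf4 differed the other way, with 12.4 and 13.9 FPKM in control against 2.43, 0.761 and 1.22 FPKM in knockout libraries (log2 fold change -2.57 ± 0.18, limma adjusted p 7.49e-10 in a separate fit of the total RNA libraries).

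The promoters of Foxd3 and Fgf4 are shown because neither gene overlapped between the groups and both promoters are dense in CpG. A role of Polycomb complexes at these promoters was not tested. Cyp26a1 and Apoa1, which were lower, are shown beside them and described further on. Each sequence runs from 250 bases before to 50 after the RefSeq transcription start (GRCm38.p6, plus strand), with every CG in capitals. The RefSeq start of Fgf4 lies inside the longer span that GENCODE gives the gene.
Foxd3: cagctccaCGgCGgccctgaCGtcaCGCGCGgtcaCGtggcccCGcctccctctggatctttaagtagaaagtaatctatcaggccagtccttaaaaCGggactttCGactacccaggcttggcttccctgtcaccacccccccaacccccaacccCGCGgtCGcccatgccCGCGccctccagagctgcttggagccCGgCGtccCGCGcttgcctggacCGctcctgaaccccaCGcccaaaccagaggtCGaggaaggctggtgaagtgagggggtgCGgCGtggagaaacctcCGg
Fgf4: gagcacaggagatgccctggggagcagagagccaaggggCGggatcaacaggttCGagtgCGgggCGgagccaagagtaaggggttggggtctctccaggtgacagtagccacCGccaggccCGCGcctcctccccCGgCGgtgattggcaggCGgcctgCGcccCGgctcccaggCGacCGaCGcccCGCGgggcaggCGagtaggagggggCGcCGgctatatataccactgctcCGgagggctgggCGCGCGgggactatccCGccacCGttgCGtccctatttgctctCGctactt
Cyp26a1: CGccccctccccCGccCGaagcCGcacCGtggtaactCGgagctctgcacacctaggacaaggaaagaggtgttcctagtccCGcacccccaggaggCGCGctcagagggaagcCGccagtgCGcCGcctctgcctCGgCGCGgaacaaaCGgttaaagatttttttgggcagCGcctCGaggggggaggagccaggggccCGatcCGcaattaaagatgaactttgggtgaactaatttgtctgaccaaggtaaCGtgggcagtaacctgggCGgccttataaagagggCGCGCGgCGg
Apoa1: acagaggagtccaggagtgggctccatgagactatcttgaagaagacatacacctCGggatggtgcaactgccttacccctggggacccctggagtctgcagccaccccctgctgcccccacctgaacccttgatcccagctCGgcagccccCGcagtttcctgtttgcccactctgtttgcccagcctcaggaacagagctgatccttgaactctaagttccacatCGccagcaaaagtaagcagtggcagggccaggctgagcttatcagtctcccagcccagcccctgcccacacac
The Foxd3 window (chr4:99656049-99656348) holds 25 CG and the Fgf4 window (chr7:144861136-144861435) 28. Of 27025 RefSeq promoters of the same length, 18.4% hold at least as many CG as Foxd3 and 14.0% at least as many as Fgf4, and the median is 7. The Cyp26a1 window (chr19:37697558-37697857) holds 26 CG, as many or more than which occur in 16.8% of promoters, and the Apoa1 window (chr9:46228380-46228679) holds 4. These 4 were picked with their values known. Over the genes named as highest or lowest with a RefSeq promoter, the median was 22 CG for 10 higher and 14 for 8 lower genes. The median of 7 is over all RefSeq promoters, not over those of the genes tested here. The letters TATAAA, searched on both strands, occur in the Cyp26a1 window and in 14.2% of all promoters, and not in the other 3 windows. Such matches describe the letters and do not show binding.

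The other 10 genes chosen as highest in the knockout had log2 fold changes of 1.67 to 2.63 where a fold could be given. Gadd45g, a stress-inducible gene of the GADD45 family that is also linked to exit from pluripotency, measured 0.698 and 3.33 FPKM in control and 21.7 and 11.3 FPKM in knockout (log2 fold change 2.63 ± 0.52, limma adjusted p 1). Its control VE libraries held 29.2 and 31.6 FPKM. Pygo2, a WNT coactivator that reads histone H3 methylation, measured 0.725 and 4.29 FPKM against 19.5 and 12.05 FPKM. Taf5l, a subunit of the SAGA coactivator complex, measured 2.49 and 11.6 FPKM against 22.0 and 28.6 FPKM. In both genes the lower control was replicate 1. Ccnk, a cyclin of the kinases CDK12 and CDK13, measured 0.698 and 2.78 FPKM against 15.8 and 4.20 FPKM. Dusp9, a phosphatase that dampens ERK signalling downstream of FGF, measured 6.13 and 2.35 FPKM against 13.7 and 16.1 FPKM. The zinc finger genes Zbtb22 (1.07 and 0.767 against 8.76 and 3.72 FPKM) and Zfp936 (4.40 and 4.96 against 21.1 and 13.7 FPKM) also had no overlap. Nrxn2, a neurexin of synapses, measured 0.916 and 0.398 FPKM against 10.2 and 1.42 FPKM, so that its higher mean rests mostly on knockout replicate 1. Like Foxd3, Nrxn2 entered the test only through its knockout libraries. Limma adjusted p was 1 for each of these genes.

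The remaining 2 of these genes share sequence with a neighbour, and their values are uncertain. Trex1, a DNA exonuclease, was listed at 0 in both controls and at 9.54 and 3.56 FPKM in the knockouts. However, 95.8% of its exonic 50-base words also lie in Atrip, which measured 9.94 and 5.59 FPKM in control and 14.7 and 7.07 FPKM in knockout EPI, with overlapping groups. The limma adjusted p of Trex1 was 0.686. Cers1, a ceramide synthase, measured 0.568 and 0.604 FPKM against 2.57 and 15.02 FPKM. Like Foxd3, Cers1 entered the test only through its knockout libraries. It shares 41.8% of its words with Gdf1, a NODAL-related ligand, which measured 36.5 and 22.1 FPKM against 57.0 and 3.79 FPKM. In knockout replicate 2, where Cers1 was highest, Gdf1 was lowest.

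**Figure D4:**
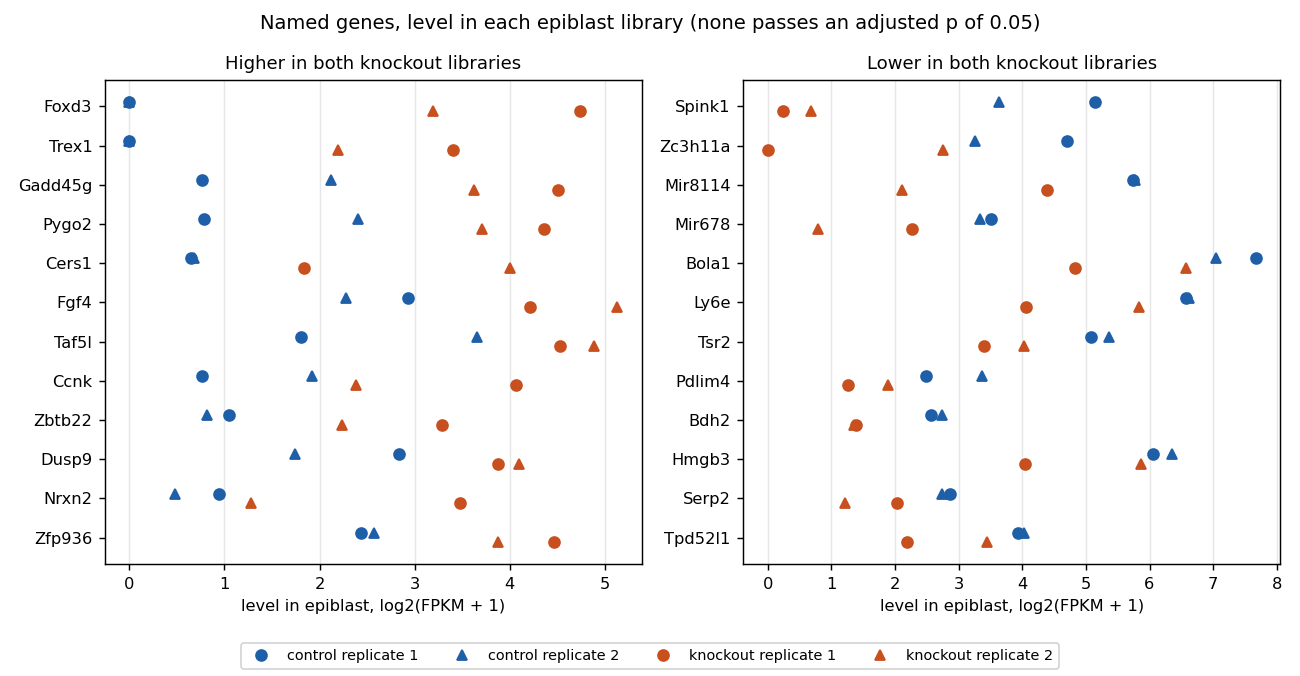
Each row gives 1 gene in the 4 epiblast libraries as log2(FPKM + 1), control in blue and knockout in orange, circles for replicate 1 and triangles for replicate 2. By the way they were chosen, the 12 genes on the left have both knockout libraries above both controls and the 12 on the right below, and none passed an adjusted p of 0.05.

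Predicted models aside, the largest difference among the genes named as lower in both knockout libraries was that of an abundant VE transcript. Spink1, a secreted trypsin inhibitor, measured 34.3 and 11.4 FPKM in control and 0.178 and 0.597 FPKM in knockout EPI, a log2 fold change of -3.93 ± 0.69 (limma adjusted p 0.686). The VE libraries held 2002 to 7110 FPKM of it. Bola1, a mitochondrial protein linked to iron-sulfur cluster assembly, measured 203 and 132 FPKM in control and 27.5 and 94.5 FPKM in knockout EPI (log2 fold change -1.66 ± 0.54). In VE its order was opposite, at 14.1 and 13.2 FPKM in control and 91.3 and 135 FPKM in knockout. Ly6e, a GPI-anchored surface protein, likewise measured 94.0 and 97.0 FPKM against 15.6 and 56.1 FPKM in EPI and 20.3 and 9.04 FPKM against 78.3 and 36.7 FPKM in VE. The difference between the 2 lineages did not pass for either gene (limma adjusted p 0.922 for Bola1 and 1 for Ly6e).

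Tsr2, a chaperone of a ribosomal protein, measured 32.8 and 40.4 FPKM in control and 9.56 and 15.2 FPKM in knockout EPI (log2 fold change -1.51 ± 0.37), with close values within each group. It shares 25.9% of its words with Fgd1. Bdh2, a dehydrogenase, had close values within groups too, with 4.88 and 5.65 FPKM in control and 1.61 and 1.57 FPKM in knockout. Hmgb3, a high mobility group chromatin protein, measured 65.5 and 81.0 FPKM against 15.4 and 57.0 FPKM. Pdlim4, an actin-associated LIM protein, measured 4.61 and 9.33 FPKM against 1.39 and 2.72 FPKM. Serp2, an endoplasmic reticulum stress protein, measured 6.30 and 5.64 FPKM against 3.06 and 1.32 FPKM, and Tpd52l1, a D52 family protein, 14.3 and 15.3 FPKM against 3.56 and 9.91 FPKM.

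The last 3 of the lower genes are models that cannot be separated from others in these files. Mir8114 (52.7 and 53.5 against 19.9 and 3.33 FPKM) and Mir678 (10.3 and 9.09 against 3.79 and 0.726 FPKM) are miRNA precursors whose words all recur in Teddm2 and Prmt2. One of 2 models named Zc3h11a (ENSMUSG00000116275.1), an RNA-export factor, measured 25.04 and 8.54 FPKM in control against 0 and 5.75 FPKM in knockout. All of its words recur in the second model (ENSMUSG00000102976.6), which measured 3.19 and 12.3 FPKM against 38.1 and 10.3 FPKM, so the 2 models differed in opposite directions. Limma adjusted p was 1 for each of the 12 lower genes other than Spink1.

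Pluripotency genes were counted next. Of 30 listed, 28 were tested, 19 had a positive and 9 a negative fold change, and the median was 0.16 against 0.06 over all genes. Both knockout libraries lay above both controls for 7 of them (25%, against 14.6% of all genes), and Foxd3, Sox3 and Pou5f1 were higher at an unadjusted p under 0.05 (1.62% of all genes). Foxd3 passed the filter only through its knockout libraries, which fixed its place in these counts. Without it 6 of 27 (22.2%) lay above both controls, and the median was 0.14. Pou5f1 had a log2 fold change of 0.91 ± 0.35 and Sox3, a SOXB1 factor of epiblast and neural ectoderm, of 1.17 ± 0.47, at 13.1 and 6.57 FPKM in control and 30.1 and 16.3 FPKM in knockout. Sox2, the partner of Pou5f1 in pluripotency, measured 8.37 and 2.91 FPKM against 23.1 and 6.89 FPKM, with overlapping groups. Nodal, the TGF-beta ligand that maintains and patterns the epiblast, measured 13.6 and 11.9 FPKM against 33.3 and 18.003 FPKM. Fgf5, a marker of the later, primed epiblast, measured 53.3 and 66.8 FPKM against 35.5 and 103 FPKM, and Otx2, a factor of the same state, 73.5 and 73.0 FPKM against 56.1 and 89.8 FPKM, so in both the knockout libraries lay on either side of the controls. Nanog, which returns in the posterior epiblast, measured 10.2 and 17.8 FPKM against 11.8 and 7.96 FPKM.

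Several primitive streak genes were lowest in knockout replicate 2. The 5 streak markers (T, Mixl1, Mesp1, Evx1 and Gsc) summed to 5.50 and 17.6 FPKM in control and 8.66 and 1.36 FPKM in knockout EPI. In VE the same sum was higher, at 19.9 to 52.9 FPKM, so it is not particular to EPI. Mixl1 alone measured 12.5 to 34.5 FPKM in VE. Knockout replicate 2 was the lowest of the 4 for Fgf8, a posterior ligand (49.3 and 56.6 against 61.1 and 6.74 FPKM), for Mixl1 (0.882 and 9.18 against 1.497 and 0.235 FPKM), for Eomes, the T-box factor of endoderm and anterior mesoderm (12.5 and 15.4 against 15.3 and 6.70 FPKM), and for T (0.428 and 2.22 against 1.18 and 0.0813 FPKM). Without that library the log2 fold changes of Fgf8, Eomes and T turned from -1.30, -0.41 and -0.48 to 0.21, 0.13 and 0.02. Wnt3, which starts the streak, measured 0.761 and 2.71 FPKM against 4.56 and 1.32 FPKM. Of 30 streak and mesoderm genes 19 were tested, with 6 positive and 12 negative fold changes and a median of -0.19, which ran from -0.70 to 0.13 when an EPI library was left out and was positive without knockout replicate 2. Both knockout libraries lay below both controls for 5 of the 19 (26.3%, against 9.42% of all genes) and above for 1, and 2 were lower at an unadjusted p under 0.05 (0.665% of all genes). These were Cyp26a1 and Foxa2, and both were higher in every VE library than in any EPI library. Foxa2 measured 19.15 to 27.4 FPKM in VE. Cyp26a1 (chr19:37697798-37701536, plus strand), the enzyme that degrades retinoic acid, measured 4.63 and 4.16 FPKM in control and 0.196 and 0.0361 FPKM in knockout EPI. Its log2 fold change of -2.28 ± 0.39 (limma adjusted p 0.686) stayed between -2.38 and -2.17 when any EPI library was left out. VE held 153 to 483 FPKM and EXE 112 to 182 FPKM of Cyp26a1.

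Several visceral endoderm genes, low in EPI, were lower in both knockout libraries. All 26 listed were tested, 19 had a negative fold change, and both knockout libraries lay below both controls for 8 (30.8%, against 9.42% of all genes). Apoa1, the major apolipoprotein of HDL particles, measured 5.17 and 4.50 FPKM in control and 0.965 and 0.390 FPKM in knockout EPI (log2 fold change -1.82 ± 0.32, limma adjusted p 0.686). Apom, another HDL apolipoprotein, measured 2.48 and 3.65 FPKM against 0.126 and 0.489 FPKM, and Afp, alpha-fetoprotein, 0.769 and 1.35 FPKM against 0.0763 and 0.0190 FPKM. Ttr, the thyroid hormone carrier, was at 0.502 and 0.420 FPKM in control and 0 and 0.0175 FPKM in knockout. Spink1, Apoa1, Apom and Afp were the 4 of these 26 genes lower at an unadjusted p under 0.05, as 0.665% of all genes were. Against VE levels of 4786 to 5949 FPKM for Apoa1, the EPI values are small. The summed level of the 26 genes did not follow them, with 193 and 189 FPKM in control and 228 and 126 FPKM in knockout EPI, because Apoe (125 and 130 against 205 and 98.4 FPKM) outweighed the rest. Whether VE RNA in the EPI libraries contributed to these differences was not tested. In bulk samples, fewer cells of a type and less RNA per cell cannot be told apart.

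Anterior visceral endoderm genes were low as well. Of 10 tested, 9 had a negative fold change and 6 lay below both controls in both knockouts (60%, against 9.42%), with a median of -0.39. Foxa2, a pioneer factor of endoderm and node that is on this list and on that of the streak, measured 1.38 and 2.58 FPKM in control and 0.0752 and 0 FPKM in knockout EPI (log2 fold change -1.49 ± 0.39, limma adjusted p 1). Cer1, a secreted NODAL antagonist, was at 3.22 and 0.0814 FPKM in control and listed at 0 in both knockouts. Members other than Otx2 and Lefty1 stayed under 5 FPKM in every EPI library. Of the 30 trophoblast and EXE genes 19 were tested, with a median of 0.17. The placental homeobox gene Rhox5 measured 6.51 and 4.95 FPKM against 4.54 and 39.3 FPKM, so only knockout replicate 2 stood apart, and EXE libraries held 3606 to 4645 FPKM of it.

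The Polycomb machinery that BAP1 opposes was present in both groups. Of 7 canonical PRC1 subunits tested, 5 had both knockout libraries above both controls (71.4%, against 14.6%), and the median log2 fold change was 0.28 (0.11 to 0.54 when an EPI library was left out). Cbx7, the reader of H3K27me3 in pluripotent cells, measured 19.6 and 15.6 FPKM in control and 47.4 and 27.4 FPKM in knockout (log2 fold change 1.00 ± 0.37). Cbx2 measured 11.3 and 4.94 FPKM against 16.2 and 11.7 FPKM, and Phc1, a scaffold subunit, 61.1 and 26.3 FPKM against 64.1 and 67.8 FPKM. Of 13 PRC2 genes 11 had positive fold changes, 5 lay above both controls (38.5%, against 14.6% of all genes) and none below, and the median was 0.28. The largest difference was that of Epop, which links PRC2 to elongin, with 21.4 and 10.3 FPKM against 42.5 and 28.9 FPKM (1.18 ± 0.40). The methyltransferase Ezh2 was at 52.1 and 49.4 FPKM against 64.6 and 65.9 FPKM. The 29 core and variant PRC1 genes had a median of 0.15. Of them 1 lay above both controls (3.45%, against 14.6% of all genes) and 3 below (10.3%, against 9.42%). Their largest fold change, that of the repressor E2f6, was set by knockout replicate 1 (1.56 FPKM, against 14.0 to 25.2 FPKM in the other 3 libraries) and turned positive without it.

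The 16 tested members of the BAP1 complex and its partners had a median of 0.33, with 12 positive and 4 negative fold changes. Of them 2 lay above both controls (12.5%, against 14.6% of all genes) and 1 below (6.25%, against 9.42%). The median ran from -0.06 to 0.56 when an EPI library was left out and was negative without control replicate 2. Mbd6, a methyl-CpG-binding-domain protein of the complex, was highest in knockout replicate 1 alone (0.140 and 0.631 against 6.27 and 0.886 FPKM). Asxl1, an activating partner, measured 16.6 and 8.70 FPKM against 19.7 and 11.3 FPKM. The 12 other H2A deubiquitinases had a median of -0.03, split evenly into 6 positive and 6 negative fold changes. Usp16, which acts on the same histone mark, measured 8.77 and 26.2 FPKM against 12.6 and 18.9 FPKM. The 15 H3K27 demethylases and H3K4 methylases had a median of 0.25, with 12 positive fold changes. Of them 2 lay above both controls (13.3%, against 14.6% of all genes) and 1 below (6.67%, against 9.42%). That median ran from -0.19 to 0.66 and was negative without knockout replicate 1.

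Genes of DNA methylation had a median of 0.43 over 15 genes, of which 13 were positive and 4 (26.7%, against 14.6% of all genes) lay above both controls. Dnmt3l, the catalytically inactive cofactor of the de novo methyltransferases, measured 6.24 and 7.12 FPKM in control and 21.6 and 15.5 FPKM in knockout EPI (1.33 ± 0.52, limma adjusted p 1). The enzymes themselves overlapped between groups, with Dnmt3b at 589 and 277 FPKM against 632 and 479 FPKM and Dnmt1 at 19.6 and 12.6 FPKM against 46.5 and 16.3 FPKM. Germline genes listed as targets of variant PRC1 and DNA methylation had a median of 0.29 over 18 tested of 32. The tested members passed the filter on level, so they were not silent in all libraries. Of these 7 lay above both controls (38.9%, against 14.6%) and 1 below (5.56%, against 9.42%). The median was 0.14 without control replicate 1 and 0.77 without knockout replicate 1. Fkbp6, a chaperone of the piRNA pathway, measured 8.32 and 12.9 FPKM against 22.8 and 35.4 FPKM, and Stag3, the meiotic cohesin subunit, 0.570 and 0.381 FPKM against 4.02 and 1.51 FPKM. Not all members went this way, as Tdrkh, another piRNA factor, was at 4.23 and 6.87 FPKM against 1.69 and 3.35 FPKM and Sycp3 at 61.5 and 98.7 FPKM against 39.5 and 70.2 FPKM. Of primordial germ cell genes, the most abundant, Dppa5a, measured 518 and 321 FPKM against 739 and 641 FPKM, and shares 38.6% of its words with a pseudogene.

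Imprinted genes were counted in 2 lists. The 22 tested genes of noncanonical imprinting, which rests on maternal H3K27me3, had a median of 0.10, and 6 lay above both controls (27.3%, against 14.6% of all genes) and none below (9.42% of all genes). The largest difference was that of the noncoding Gm32885, at 2.86 and 3.50 FPKM in control against 12.5 and 6.78 FPKM in knockout, followed by Epop, which is on this list too. Slc38a4 (3.12 and 8.86 against 2.96 and 11.4 FPKM) and Sfmbt2 (at most 0.270 FPKM in any EPI library) showed no separation. The 38 canonical imprinted genes had a median of 0.22, with 27 positive fold changes. Of them 7 lay above both controls (18.4%, against 14.6% of all genes) and 1 below (2.63%, against 9.42%). Grb10, a growth-restraining adaptor, was lower in knockout replicate 1 (21.1 and 9.18 against 2.58 and 11.02 FPKM), while in VE it was higher in both knockouts (2.01 and 1.58 against 16.3 and 14.5 FPKM). The difference between lineages had a limma adjusted p of 1. Since FPKM was not split by parental allele in the values used here, allelic expression was not analysed here.

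Most members of classic Polycomb target families were too low to test in either group. Of 39 Hox genes 1 was tested, Hoxa7, which did not exceed 0.147 FPKM in EPI. Of 258 genes in developmental transcription factor families 58 were tested, with a median log2 fold change of 0.10, and 13 lay above (22.4%, against 14.6% of all genes) and 3 below both controls (5.17%, against 9.42%). Without Foxd3, whose place the filter fixed, 12 of 57 (21.1%) lay above. Sox3 and Msx1, a homeobox target of BMP signalling (2.12 and 5.71 against 7.63 and 9.99 FPKM), were higher and Foxa2 lower at an unadjusted p under 0.05. Members that were not tested did not reach 1 FPKM in at least 2 of the 8 libraries fitted.

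Signalling genes were examined by pathway. The 19 tested FGF ligands, receptors and feedback genes had a median of 0.36, with 15 positive fold changes and 5 above both controls (26.3%, against 14.6% of all genes). Beside Fgf4, the ligands Fgf15 (41.2 and 45.2 against 60.5 and 86.0 FPKM) and Fgf17 (0.351 and 0.859 against 1.32 and 2.07 FPKM) were higher in both knockouts, whereas the transcriptional readouts Etv4, Etv5 and Spry4 overlapped. Etv5 measured 35.3 and 18.1 FPKM against 32.8 and 32.7 FPKM and Spry4 6.61 and 3.67 FPKM against 5.36 and 3.79 FPKM. The 28 Nodal and BMP genes had a median of 0.13. Gdf3, a NODAL coligand, measured 5.51 and 9.32 FPKM against 10.3 and 35.0 FPKM, and Id1, a BMP target, 3.35 and 32.7 FPKM against 53.5 and 30.6 FPKM, a pattern set by its single low control. The 23 WNT genes had a median of 0.04. Lgr4, an R-spondin receptor, was higher (0.911 and 2.37 against 4.00 and 5.96 FPKM) and Porcn, which acylates WNT proteins, lower in both knockouts (2.30 and 1.92 against 0.541 and 0.419 FPKM).

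Growth and stress genes were examined by list. The 26 tested p53 pathway genes had a median of 0.24, and 4 lay above both controls (15.4%, against 14.6%), among them the kinase Plk3 (1.92 and 1.70 against 3.35 and 6.07 FPKM). The 26 cell cycle genes had a median of -0.09, with the replication licensing factor Mcm3 the largest difference, at 77.8 and 108 FPKM against 175 and 154 FPKM. The 84 ribosomal protein genes had a median of -0.05. Of them 2 lay above both controls (2.38%, against 14.6% of all genes) and 4 below (4.76%, against 9.42%). Rpl22 alone ranged from 161 to 1666 FPKM, the highest in knockout replicate 1. The 25 genes of hypoxia and glycolysis had a median of -0.10, and Hk1, a hexokinase, was lower (4.07 and 2.77 against 0.582 and 2.39 FPKM). Immediate early and heat shock genes, often raised by handling, had a median of 0.01 over 16 genes. None lay above both controls (14.6% of all genes) or below both (9.42% of all genes). Whether handling differed between the groups was not tested.

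**Figure D5:**
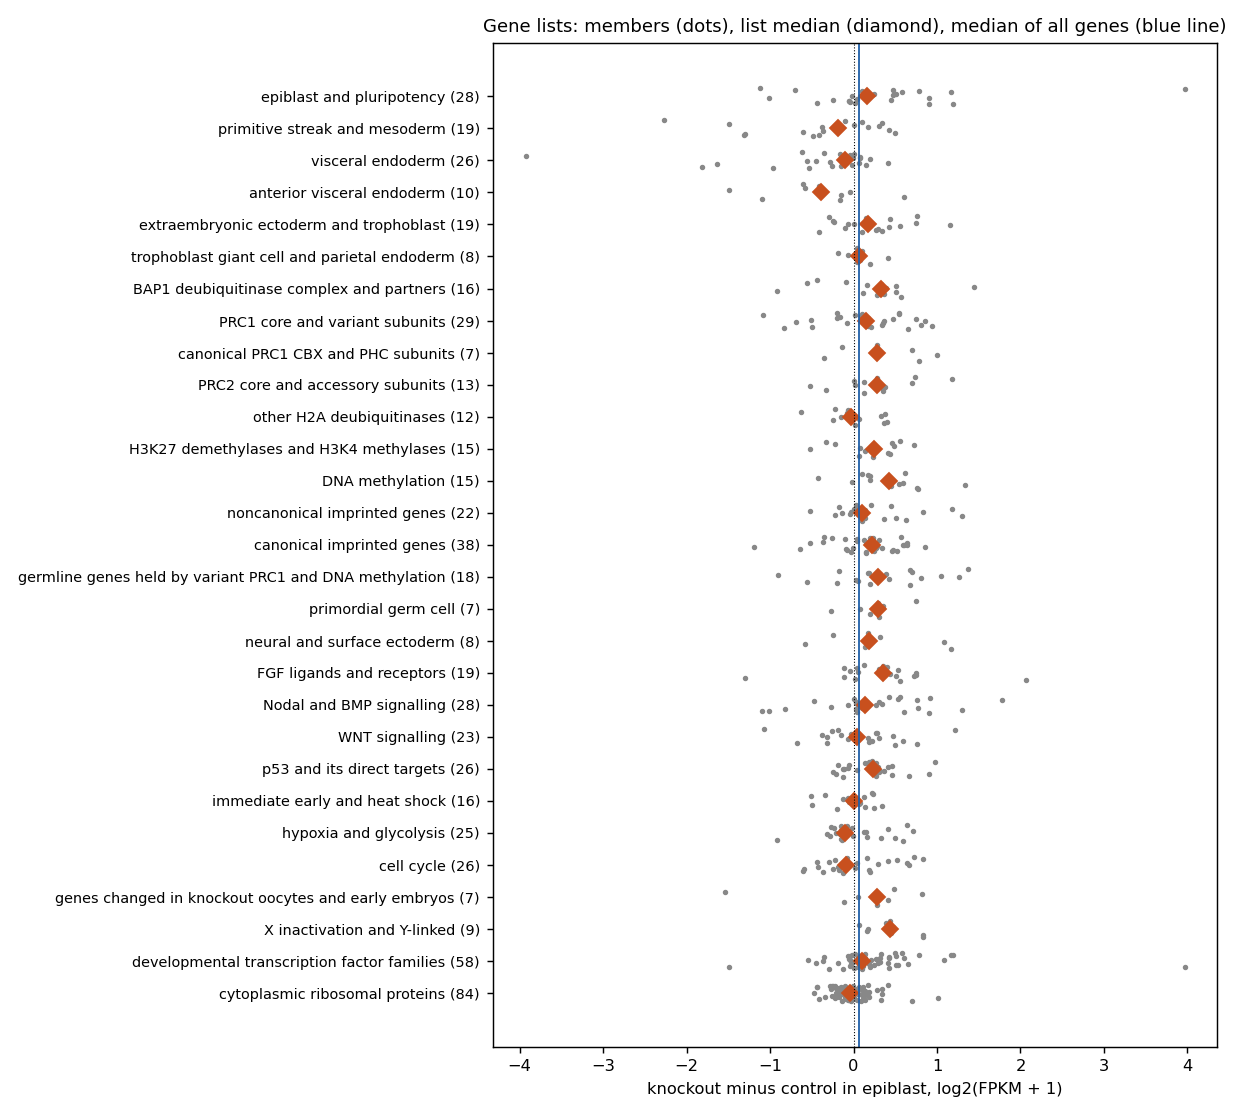
Dots give the log2 fold change, knockout minus control in epiblast, of each tested gene of a list, diamonds the list's median, and the blue line the median of all 13376 genes (0.06); numbers in parentheses are genes tested. Medians range from -0.39 (anterior visceral endoderm) to 0.44 (X inactivation and Y-linked genes), and most lists have members on both sides of 0.

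Genes that the knockout had changed earlier in development were followed into EPI. These sets come from the total RNA libraries, at a limma adjusted p under 0.05. Of 126 genes higher in knockout fully grown oocytes (0.83% of 15184 tested there), 87 were tested in EPI, with a median log2 fold change of 0.17. Of 777 lower in oocytes (5.12%), 357 were tested, with a median of 0.05. Of 3238 genes higher in knockout late 2-cell embryos (21.3%), 2021 were tested, with a median of 0.04, and of 3181 lower (20.9%), 2614 were tested, with a median of 0.10. The median of all genes was 0.06. The medians of the lower oocyte set and of both late 2-cell sets changed sign under at least 1 scaling, and that of the higher oocyte set ran from 0.02 to 0.31 when an EPI library was left out. Single genes kept or turned their direction. The circadian repressor Ciart, higher in knockout late 2-cell embryos (2.57 and 2.75 against 8.11, 5.31 and 6.49 FPKM), was lower in knockout EPI (30.7 and 24.5 against 6.71 and 11.5 FPKM, log2 fold change -1.53 ± 0.68, limma adjusted p 1). Dnmt3l was higher at both stages, at 12.6 and 11.9 FPKM against 22.8, 26.2 and 26.1 FPKM in late 2-cell embryos.

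Whether the effect of the knockout differed between EPI and VE was tested as an interaction in the same fit. That fit treated the EPI and VE libraries as independent. In VE and EXE, Y-linked genes were present or at 0 in the same genotype and replicate number as in EPI. Lineages of the same genotype and number may thus share embryos, which the labels do not state. The interaction passed for 1 gene of 13376 (0.00748%), the predicted model Gm44805, and 180 genes (1.35%) had an unadjusted p under 0.05. Gm44805 was near 0 in every EPI library, and its difference arose in VE. In VE alone 1 gene passed, again Gm44805, and 170 had an unadjusted p under 0.05. Typical standard deviations between replicates, on the log2 scale, were 0.31 in control and 0.42 in knockout EPI, compared with 0.29 and 0.23 in VE.

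The largest fold changes in EPI belonged to 3 predicted models on chromosome 1 that are copies of mitochondrial genes, singled out after their values were seen. Gm28437 was listed at 0 in both controls and at 642 and 263 FPKM in the knockouts, and Gm28661 at 0 in both controls and at 53.6 and 116 FPKM in the knockouts. Gm28439 went the other way, at 146 and 258 FPKM in control and 0.403 and 0.00637 FPKM in knockout. All of their 50-base words recur in mitochondrial genes, Gm28437 in mt-Co3, Gm28661 in mt-Co2 and Gm28439 in mt-Nd4. All 13 protein-coding genes of the mitochondrial genome were listed at 0 in every E6.5 library, and whether reads of mitochondrial RNA were counted in such copies was not tested. In a fit of the EPI libraries alone these 3 models passed (limma adjusted p 0.0074 to 0.0241). In VE the same models varied between replicates of 1 genotype, with Gm28439 at 300.3 and 0.0643 FPKM in the 2 knockouts.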

How the data were processed

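Poly(A) RNA of E6.5 epiblast was measured in 4 libraries, made with the SMART-Seq mRNA and Nextera XT kits per the labels' protocols. The authors deposited FPKM values per gene, 1 column per library. Trim Galore 0.6.6, STAR 2.7.9, StringTie 2.1.7 and build mm10 are named in the submitters' processing notes, without roles. The total used for scaling, the annotation and the use of strand are not given in the sources used here. The deposited column of control replicate 1 was recorded as another unit, since it lists Gm24888 at -1e-06. That value was set to 0. FPKM keeps no read numbers, so the depth cannot be known and counting error is left out.

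Of 55401 gene identifiers, 55141 matched GENCODE M21 (GRCm38). Values were analysed as log2(FPKM + 1), which understates changes of low genes, keeping a gene when 2 or more of the 8 EPI and VE libraries reached 1 FPKM. Groups, taken from the sample titles, were compared in limma 3.58.1 (R 4.3.3; lmFit, eBayes with trend), with Benjamini-Hochberg adjustment over all genes and a threshold of 0.05. Early stages were fitted separately, and EXE, with 1 control library, was only described. The fit was also run on simulated libraries with independent noise, with changes planted only in genes of higher level. That run cannot show how the fit handles low genes or replicate differences shared between genotypes. Python 3.11.15, pandas 2.3.3 and matplotlib 3.10.9 made tables and plots.

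The genes named are, in each direction, the 12 with the largest change that passed, or, as none did, with an unadjusted p under 0.05, both knockout libraries on 1 side of both controls, a group mean reaching 5 FPKM on the higher side and no predicted or clone name. The largest change of each of 33 gene lists and defining markers were added, and further list members are given as values to describe a group. The members, lists and rules were chosen with earlier results of these data known. Shared sequence is the share of a gene's 50-base exonic words found in other GENCODE genes. Alternatives were another pseudocount, other filters and scalings, other sets of libraries, no trend, a replicate block, a term for Y-linked signal and leaving out each EPI library.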

Additional observations from a re-analysis of the deposited data

Results flagged for a closer look

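The effect of the knockout on Gm44805 differed between EPI and VE by 8.42 ± 0.81 (SE) on the log2 scale, by the interaction test (limma adjusted p 0.0340). In EPI it was listed at 0 in both controls and at 0.257 and 0.673 FPKM in the knockouts. In VE it measured 1670 and 444 FPKM in control and 2.43 and 2.89 FPKM in knockout. Of its 50-base words, 87.9% recur in other genes, most in Apoc2, an apolipoprotein abundant in VE (3303 and 11996 FPKM in control and 3466 and 5413 FPKM in knockout VE). The groups of 2 libraries are too small for a search for single outlying samples.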

How the results depend on the processing

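The count of 0 genes passing in EPI held for most alternatives. A pseudocount of 0.1 gave 3 genes (Foxd3, Trex1 and Cyp26a1, limma adjusted p 0.0386 each), and EPI libraries alone gave 3 (Gm28437, Gm28439 and Gm28661, limma adjusted p 0.0074 to 0.0241). When either knockout library was left out, Foxd3, Cers1 and Nrxn2 were not tested.

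The labels do not say that replicate numbers pair samples, and only 2 pairs exist. In EPI, libraries with the same number deviated together (r 0.59). With the replicate number as a block, 4 genes passed (Foxd3, Gm28661, Cyp26a1 and Spink1) and 3 in the interaction. Chosen after seeing the data, EPI libraries alone with the block gave 9 genes and EPI libraries alone with the sex term, which stands for Y-linked signal, 6.

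The interaction count of 1 became 0 without a filter, with quantile normalization and with the sex term, and ranged from 0 to 2 when an EPI library was left out (0 without knockout replicate 1 or either control).

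At an unadjusted p under 0.05, higher and lower genes numbered 802 and 526 without a filter, 82 and 50 at a mean of at least 5 FPKM, 107 and 163 with median centring, 77 and 37 with EPI libraries alone, 335 and 134 with all 11 libraries, 804 and 497 with the block and 79 and 38 with the sex term. Quantile normalization gave 166 lower. EPI alone gave 636 and 361 with the block and 43 and 25 with the sex term. Leaving out an EPI library gave 161 to 868 higher and 83 to 563 lower, the most without knockout replicate 2. The cause of these changes was not tested.

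None of the 24 genes named as highest or lowest changed sign under any alternative in which it was tested. They were chosen with both knockout libraries on 1 side of both controls. This choice fixed the outcome for every alternative except the scalings. Median centring turned Hba-a1 to -0.044, Hoxa7 to -0.117, Fgf5 to -0.13 and Cdx2 to -0.048, and Otx2 turned to 0.013 with TPM scaling and 0.034 with quantile normalization. Leaving out an EPI library turned the sign of Rhox5 (-0.27 to 2.59), Hba-a1 (-0.42 to 0.62), Col4a1 (-0.076 to 0.90), E2f6 (-2.77 to 0.59), Tsix (-1.06 to 2.73), Hoxa7 (-0.068 to 0.13), Rpl22 (-0.66 to 2.696), Ddx3y (-1.39 to 2.33), Fgf5 (-0.73 to 0.77), Otx2 (-0.38 to 0.29), T (-1.07 to 0.10), Eomes (-0.95 to 0.13), Fgf8 (-2.80 to 0.21) and Wnt3 (-0.14 to 1.12). Of 607 list medians under alternatives, 46 moved by more than the spread between replicates. With 2 libraries a group and unknown depth, log2 differences near the median standard error of 0.41 cannot be told from the spread between libraries. Larger ones are not thereby resolved, as no EPI difference of any size passed in the main fit.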
